A study of Mus musculus with 8 samples.

Results

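The proteins of the mitochondrial ribosome were examined at the level of their mRNAs in neonatal mouse hearts. The genes were chosen by name alone, as every gene symbol in the files that begins with Mrpl or Mrps and a digit, and 4 symbols of named pseudogenes were left out. This gave 76 genes, of which 49 code for proteins of the large subunit, 26 for proteins of the small subunit, and 1, Mrps36, for a protein since assigned to another mitochondrial complex. They stand among 39614 loci with a gene symbol (annotated loci) and 80155 loci in all. RNA-seq libraries depleted of ribosomal RNA had been made from the hearts, without atrial appendages, of male Hsd:ICR(CD-1) mice, an outbred stock with no genetic or drug treatment. There were 4 hearts at postnatal day 1 (P1) and 4 hearts of other mice at postnatal day 7 (P7), 1 library per heart, and the labels give each heart as a separate individual. The comparison of the stages covers the first postnatal week, in which the mouse heart loses its ability to regenerate.

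The mitochondrial ribosome translates the few respiratory chain proteins that are encoded in mitochondrial DNA. Its ribosomal RNAs come from mitochondrial DNA, whereas all of its proteins are encoded in the nucleus, made in the cytosol and imported. Some of these proteins descend from the bacterial ribosome and others were added during the evolution of mitochondria. Heart muscle is rich in mitochondria, and its reliance on oxidative phosphorylation grows after birth.

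Nuclear genes for mitochondrial proteins often carry binding sequences of NRF1, of the ETS factor GABP (also called NRF2) and of YY1 near their transcription start. Promoters of 67 of the 76 genes were found in the RefSeq promoter table (build GRCm38.p6, 250 bases before to 50 after the start), and were searched on both strands for exact letters. The ETS letters CCGGAAG were present in 24 of the 67 (35.8%), against 9.93% of all 27025 genes in that table. The YY1 letters AAGATGGC were present in 12 (17.9%) against 3.19%, and the NRF1 letters CGCATGCG in 7 (10.4%) against 2.07%. At least 1 of these 3 sequences was found in 36 of the 67, and the ETS and YY1 letters overlapped in none. The estrogen-related receptor letters AAGGTCA (5.97% against 5.38%) and the E-box CACGTG (7.46% against 8.09%) were about as frequent in the members as in all genes. The median GC content of the members' promoters was 58.3%, against 52.7% for all promoters. The 27025 genes were also not filtered by gene type, whereas the members all code for proteins. The part of these differences in the matches was not tested. A match is a run of letters and not a measured binding site.

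The promoter stretches below show these letters in capitals in 5 members, from 120 bases before to 30 after the RefSeq start. They were chosen as the gene with the highest fold change (Mrps26, chr2:130563637-130563786 on the plus strand), a gene with both ETS and YY1 letters (Mrps18a, chr17:46110884-46111033 on the plus strand), a gene with the NRF1 letters at 2 places (Mrpl32, chr13:14613008-14613157 on the minus strand), a gene that shares its start region with another member (Mrps11, chr7:78783011-78783160 on the plus strand) and the gene with the lowest fold change (Mrps22, chr9:98601650-98601799 on the minus strand). The ETS letters lay close to the start in both Mrps26 and Mrps22, the genes at the opposite ends of the range of fold changes.
Mrps26: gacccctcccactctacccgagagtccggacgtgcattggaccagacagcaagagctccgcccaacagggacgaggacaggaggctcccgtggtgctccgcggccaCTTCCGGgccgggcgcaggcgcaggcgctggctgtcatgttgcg
Mrps18a: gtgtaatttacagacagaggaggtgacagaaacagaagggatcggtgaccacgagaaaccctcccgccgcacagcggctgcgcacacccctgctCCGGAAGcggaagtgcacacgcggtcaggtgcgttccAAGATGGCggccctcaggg
Mrpl32: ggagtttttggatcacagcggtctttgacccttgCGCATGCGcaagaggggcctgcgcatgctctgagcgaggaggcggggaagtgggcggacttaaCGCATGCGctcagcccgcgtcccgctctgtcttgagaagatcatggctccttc
Mrps11: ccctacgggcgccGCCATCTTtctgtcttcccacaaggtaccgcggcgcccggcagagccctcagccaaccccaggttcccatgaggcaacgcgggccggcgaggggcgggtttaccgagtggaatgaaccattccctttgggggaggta
Mrps22: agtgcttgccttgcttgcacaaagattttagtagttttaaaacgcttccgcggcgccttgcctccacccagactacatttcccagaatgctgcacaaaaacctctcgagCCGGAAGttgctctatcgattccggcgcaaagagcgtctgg

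The ETS matches were concentrated at the start of the gene. Of 28 ETS matches in the members, 15 began within the last 60 bases before the start and 8 after it. Of 12 YY1 matches, 8 began after the start, and the median position of all 12 was 15 bases after it. The 24 members with the ETS letters had a median log2 fold change between the stages of 0.25, and the 43 members with a promoter but no such letters had 0.33. Of the former, 22 (91.7%) were above 0, and of the latter 34 (79.1%), against 67.6% of annotated loci. By limma, 1 of the former (4.17%) and none of the latter was called higher in P7, against 7.74% of annotated loci. At an unadjusted p under 0.05, 7 (29.2%) and 14 (32.6%) were higher, against 25.6% of annotated loci. The difference between these sets was not tested.

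Many members also lie head to head with another gene. For 32 of the 76 (42.1%), a gene on the opposite strand starts within 1000 bases, against 2379 of 21923 protein-coding genes (10.9%) in the GENCODE M21 annotation of GRCm38. In 15 of these 32 the genes overlap at their starts, and whether the counting behind the files used the strand is not given in the sources used here, so values in the overlaps are uncertain. Mrps11 and Mrpl46 are such a pair of 2 members, and their genes together span chr7:78775236-78792989. Some other partners also code for mitochondrial proteins. Among them are Sars2 (mitochondrial seryl-tRNA synthetase) beside Mrps12 and Twnk (mitochondrial DNA helicase) beside Mrpl43. The complex I subunit genes Ndufs6 and Ndufb5 lie beside Mrpl36 and Mrpl47. These examples were picked by function from the 32 partners.

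Every member was expressed in every heart. The deposited unit is FPKM, a count of sequenced fragments divided by transcript length and by library size, so that levels can be set side by side between genes. All 76 members were at 1 FPKM or more in all 8 hearts, with single values from 5.33 to 368.2 FPKM. Their mean levels over the 8 hearts spanned a 26.9-fold range around a median of 35.8 FPKM, against a median of 9.25 FPKM for the 12730 annotated loci at 1 FPKM or more in every heart. Most proteins of the ribosome are present once in each particle, whereas the levels of their mRNAs were far from equal. The median level was 35.2 FPKM for small subunit genes and 35.9 FPKM for large subunit genes.

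The 5 most abundant mRNAs were those of Mrps21, Mrpl33, Mrpl42, Mrpl54 and Mrps23. Mrps21, the homolog of bacterial S21, was at 229, 182, 205 and 205 FPKM in the P1 hearts (replicates 1 to 4) and at 277, 228, 368 and 291 FPKM in the P7 hearts. The groups overlapped by a narrow margin, since the highest P1 heart and the lowest P7 heart were nearly level. Mrpl33, the homolog of bacterial L33, was at 213, 189, 222 and 235 FPKM in P1 and at 275, 188, 314 and 231 FPKM in P7, but its locus also carries the symbol Bre. Its P7 hearts lay on both sides of its P1 hearts. Mrpl42, a mitochondria-specific protein of the large subunit, was at 228, 225, 237 and 166 FPKM in P1 and at 148, 182, 238 and 195 FPKM in P7. Of these 5 genes, Mrpl42 had the only lower mean at P7 (191 ± 37.4 FPKM against 214 ± 32.3, SD, n = 4), a difference within the spread between hearts. Mrpl54 averaged 102 ± 19.7 FPKM in P1 and 144 ± 32.0 in P7, and Mrps23 averaged 95.6 ± 15.5 and 135 ± 31.4 (SD, n = 4 each). The lowest mean level, 9.23 FPKM, belonged to Mrpl11, a protein at the base of the stalk that receives elongation factors, which is needed in every ribosome. The order of the 76 levels was nearly the same at both stages (Spearman's rho 0.95, taken across genes and not across independent replicates). The plot of levels in each stage shows this order.

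**Figure D1:**
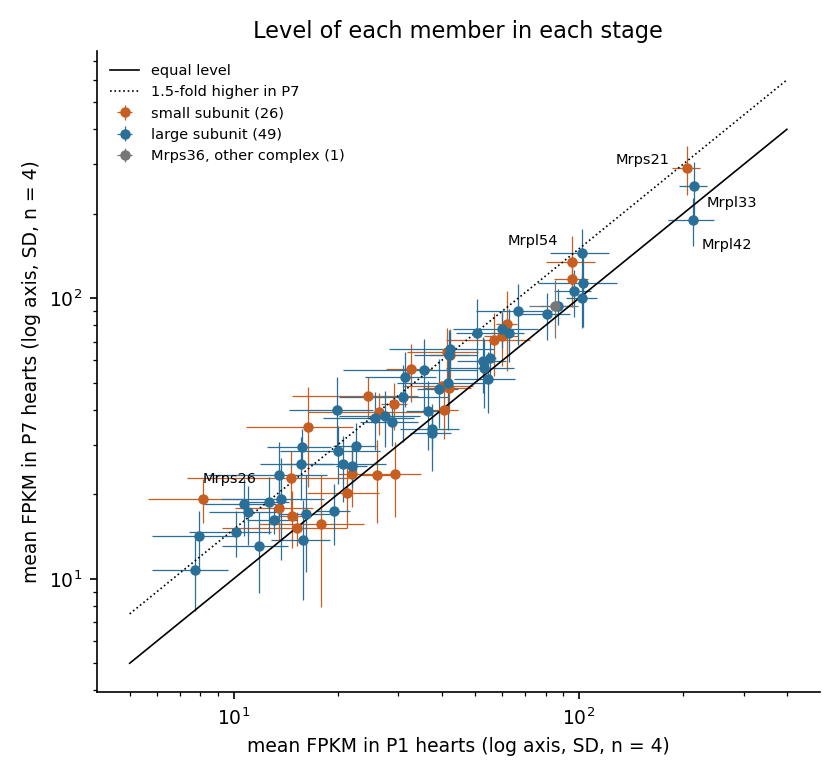
Mean FPKM of each of the 76 members in the 4 P7 hearts (vertical, log axis) against the 4 P1 hearts (horizontal, log axis), with bars of 1 SD and colours by subunit. The points follow the line of equal level over the 26.9-fold range, with most of them above it, and 16 lie on or above the dotted line of a 1.5-fold higher mean at P7.

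Few mRNAs of the mitochondrial ribosome differed between P1 and P7 beyond the spread of the hearts. Mrps26 and Mrpl38 passed the test and were 2.36-fold and 1.87-fold higher in P7, no member passed it in the other direction, and most of the remaining members had means slightly higher in P7. All loci that reached 1 FPKM in any heart entered a limma fit on log2(FPKM + 1), and a locus was called differentially expressed with a Benjamini-Hochberg adjusted p under 0.05 over all 43172 tested loci together with means that differed by a factor of 1.5 or more in either direction. The called genes Mrps26 and Mrpl38 are 2 of 76 members (2.63%) higher in P7, against 7.74% of the 17960 annotated loci tested. None of the 76 was called lower in P7 by limma, against 0.401% of annotated loci. The share of members called higher was thus below the background in this fit. In the other direction the background share is so small that no called member among 76 does not set them apart. At an unadjusted p under 0.05, 26 of the 76 (34.2%) were higher in P7 and none lower, against 25.6% and 4.1% of annotated loci. By that looser measure the share of members higher in P7 was above the background.

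The members nevertheless leaned to one side. The log2 fold change was above 0 in 64 members and below 0 in 12, with a median of 0.32 between the extremes of -0.32 and 1.17. The median of the annotated loci was itself 0.19, with 67.6% of them above 0, and the members' median exceeded it by 0.13. When the hearts were scaled to equal median ratios over annotated loci, the annotated median moved to -0.01 and that of the members to 0.06, with 44 members above 0 and 32 below. Direction in any member with a small value therefore depended on the scaling. The same scaling moved the calls over annotated loci from 1390 higher and 72 lower to 1390 higher and 733 lower. The P7 values all lay above the P1 values in 10 of the 76 members, against 17.3% of annotated loci, and in none did they all lie below, against 2.69%.

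**Figure D2:**
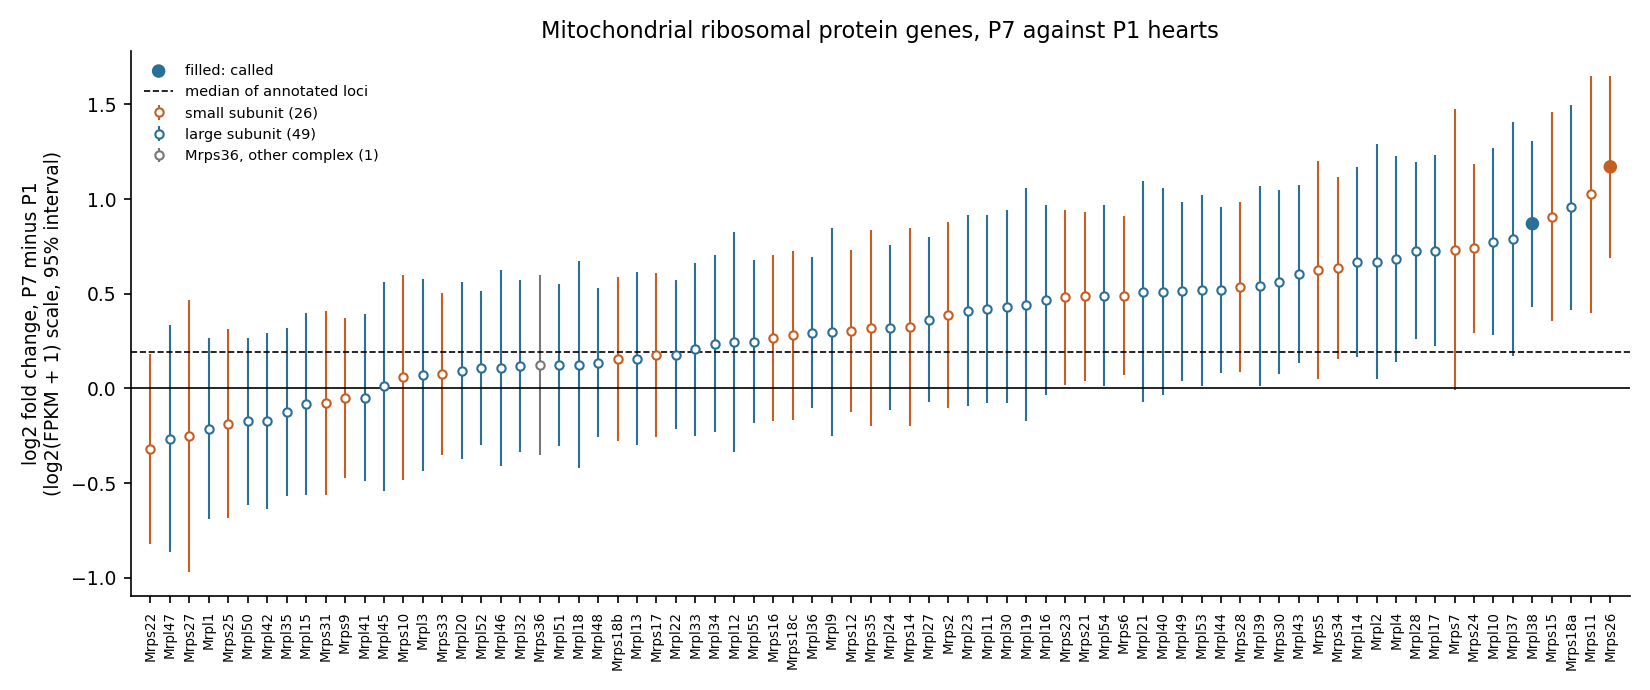
Log2 fold change of each member, P7 minus P1, on the log2(FPKM + 1) scale with its 95% interval, in rising order and coloured by subunit. Filled points mark the called genes Mrps26 and Mrpl38, and the dashed line is the annotated median of 0.19. Most intervals include 0, and 26 exclude it, all on the side of P7.

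Mrps26, a mitochondria-specific protein of the small subunit (chr2:130563742-130568695, GRCm38), had the largest difference. It was at 8.65, 7.10, 5.49 and 11.3 FPKM in the P1 hearts and at 17.2, 16.5, 24.1 and 19.0 FPKM in the P7 hearts. All P7 hearts were above all P1 hearts. The means were 8.13 ± 2.46 and 19.2 ± 3.42 FPKM (SD, n = 4 each), a ratio of 2.36 and a log2 fold change of 1.17 (95% interval 0.69 to 1.65, adjusted p = 0.0188 by limma). The exact permutation test of the difference of means (two-sided, 70 assignments) gave p = 0.0286, the smallest it can give. The call was lost without P1 replicate 2 (adjusted p = 0.0732) and without P7 replicate 3 (adjusted p = 0.0599), with log2 fold changes of 1.13 and 1.06. It was kept under both scalings and under the correction for GC content described below.

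Mrpl38, a large subunit protein of the central protuberance with no bacterial counterpart (chr11:116131817-116138868, GRCm38), was the other called gene. It was at 19.6, 15.7, 11.5 and 16.5 FPKM in P1 and at 29.1, 25.6, 36.0 and 27.2 FPKM in P7, with no overlap. The ratio of means was 1.87 and the log2 fold change 0.87 (95% interval 0.43 to 1.31, adjusted p = 0.0354 by limma). Its transcript GC content, 59.6%, is the third highest of the members, and after GC correction its log2 fold change was 0.43 (adjusted p = 0.294 by limma). The call was also lost when any of P1 replicate 2, P1 replicate 3, P7 replicate 1, P7 replicate 3 or P7 replicate 4 was left out, with log2 fold changes of 0.73 to 0.90.

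The next highest members did not pass the test. Mrps11, the homolog of bacterial S11 on the platform of the small subunit, was at 18.8, 13.8, 10.2 and 23.04 FPKM in P1 and at 24.1, 26.3, 53.9 and 35.1 FPKM in P7. The stages did not overlap, but P7 replicate 3 stood well above the other P7 hearts, and the log2 fold change of 1.03 had an adjusted p of 0.0731 by limma. Mrpl46, its head-to-head neighbour and a protein of the central protuberance, was at 13.4, 10.2, 9.14 and 14.5 FPKM in P1 and at 10.03, 9.22, 18.02 and 15.1 FPKM in P7. Its stages overlapped throughout, and its log2 fold change was 0.11 (95% interval -0.41 to 0.63). The values of this pair thus lay apart although the genes share a start region. The difference between them was not tested.

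Mrps15, the homolog of bacterial S15 that binds the small subunit ribosomal RNA, had 23.9, 20.8, 15.3 and 38.2 FPKM in P1 and 40.9, 38.0, 55.4 and 45.3 FPKM in P7. Only P1 replicate 4 reached the level of a P7 heart. The log2 fold change was 0.91 (adjusted p = 0.0724 by limma). Mrpl37, a mitochondria-specific protein of the large subunit, averaged 13.5 ± 5.13 FPKM at P1 and 23.5 ± 7.14 at P7 (SD, n = 4 each), with a log2 fold change of 0.79 (adjusted p = 0.161). Of the 76 members, 16 (21.1%) had a ratio of means of at least 1.5, against 28.7% of annotated loci, and none a ratio of at most 1/1.5, against 8.45%.

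The homologs of bacterial S18 are a family of 3 genes with one protein each in different places of the ribosome. Mrps18a, whose protein sits in the large subunit despite its name, was at 23.1, 16.3, 14.4 and 25.9 FPKM in P1 and at 33.2, 30.2, 58.0 and 37.8 FPKM in P7. The stages were separate, and the log2 fold change of 0.96 (95% interval 0.42 to 1.50) just missed the threshold, with an adjusted p of 0.0540 by limma. Mrps18b, in the small subunit, averaged 14.8 ± 1.92 FPKM in P1 and 16.8 ± 3.87 in P7, and Mrps18c, also in the small subunit, averaged 95.3 ± 10.9 and 117 ± 24.5 (SD, n = 4 each). Their log2 fold changes were 0.16 (95% interval -0.28 to 0.59) and 0.28 (95% interval -0.17 to 0.73). The value of Mrps18b turned negative under median-ratio scaling (-0.09). Mrps18c was the most abundant of the 3 in both stages.

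At the low end, the P7 and P1 hearts overlapped in each gene. Mrps22, a mitochondria-specific small subunit protein whose variants cause human mitochondrial disease, was at 28.5, 27.8, 23.6 and 37.0 FPKM in P1 and at 19.9, 16.7, 33.0 and 25.1 FPKM in P7. P7 replicate 3 lay above 3 of the 4 P1 hearts, and the log2 fold change was -0.32 (95% interval -0.82 to 0.18, adjusted p = 0.444 by limma). Under quantile normalization it was called lower in P7 (log2 fold change -0.59, adjusted p = 0.0363 by limma). Mrpl47, near the exit of the peptide tunnel, averaged 15.9 ± 3.06 FPKM at P1 and 13.7 ± 5.30 at P7 (SD, n = 4 each). Mrps27, an RNA-binding protein of the small subunit, averaged 17.9 ± 6.01 and 15.7 ± 7.76 FPKM. Without P7 replicate 2 the log2 fold changes of Mrpl47 and Mrps27 were 0.02 and 0.04. Mrpl1 (-0.21), Mrps25 (-0.19) and Mrpl50 (-0.17) completed the 6 lowest log2 fold changes, and all 3 moved to between 0.00 and 0.09 after GC correction.

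**Figure D3:**
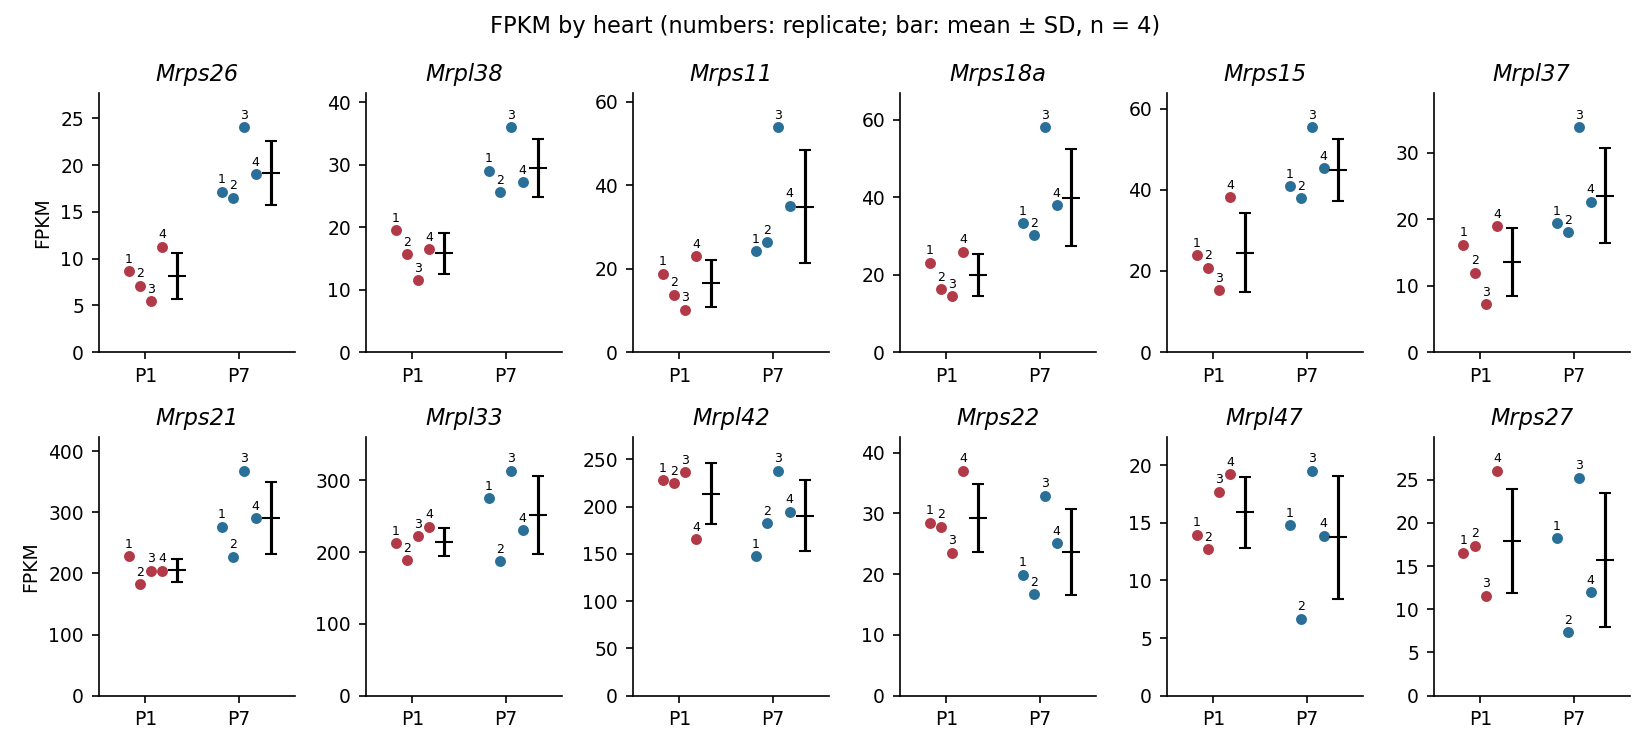
FPKM of 12 members in each heart (vertical axis from 0, P1 in red and P7 in blue, numbers for replicates, bars for mean ± SD, n = 4): 6 with the highest log2 fold changes, 3 of the most abundant and 3 with the lowest. The stages are separate in Mrps26, Mrpl38, Mrps11 and Mrps18a, and P7 replicate 3 holds the highest P7 value in all 12.

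None of the other members chosen for their roles was called by limma, and Mrpl44 and Mrps30 had an unadjusted p under 0.05 (0.0237 and 0.0269). Mrps12, at the decoding centre of the small subunit, was at 43.4, 37.1, 50.7 and 29.1 FPKM in P1 and at 49.3, 47.2, 48.7 and 49.5 FPKM in P7. Its P7 hearts were close together within the wide range of P1. Mrpl3, a conserved protein near the peptidyl transferase centre, averaged 53.0 ± 11.8 FPKM in P1 and 56.2 ± 15.6 in P7, and Mrpl12, the stalk protein also reported to bind the mitochondrial RNA polymerase, averaged 41.8 ± 12.03 and 49.97 ± 16.2 (SD, n = 4 each). Mrpl11 averaged 7.72 ± 1.90 and 10.7 ± 3.08 FPKM. Mrpl44, which has an RNase III fold, averaged 12.7 ± 1.81 FPKM in P1 and 18.8 ± 4.35 in P7 without overlap of the stages, but its adjusted p was 0.193 by limma. Mrps30, a large subunit protein despite its name, had a log2 fold change of 0.56 (adjusted p = 0.205). Mrps36, now assigned to the 2-oxoglutarate dehydrogenase complex, averaged 85.4 ± 13.9 and 94.1 ± 22.0 FPKM (SD, n = 4 each). Its log2 fold change was 0.12 (95% interval -0.35 to 0.60).

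The medians of the subunits and of the evolutionary classes were alike on the deposited scale, where 64 of the 76 members were above 0 (44 under median-ratio scaling). The median log2 fold change was 0.32 both for the small subunit (21 of 26 above 0, 1 called) and for the large subunit (42 of 49 above 0, 1 called). It was also 0.32 for the 46 homologs of bacterial proteins, of which none was called by limma and 13 had an unadjusted p under 0.05, and for the 29 mitochondria-specific proteins, of which 2 were called and 13 had an unadjusted p under 0.05. These are 28.3% and 44.8% of the classes, against 25.6% of annotated loci higher at that threshold, and the difference between the classes was not tested. Of the homologs of bacterial S18, Mrps18a and Mrps18b were counted here as mitochondria-specific and Mrps18c as a homolog of a bacterial protein. Members with a head-to-head gene had a median of 0.40, and those without had 0.29. Of the 32 partner genes, 30 had a tested locus of their own, and 27 of these were above 0 with a median of 0.25. Of annotated loci 67.6% were above 0, with a median of 0.19. The members Mrps11 and Mrpl46 are among the 30, as partners of each other. Of the 30, 1 was called higher in P7, against 7.74% of annotated loci. This was Apba3, an adaptor protein gene beside Mrpl54, at a mean of 4.86 FPKM in P1 and 12.5 in P7 (log2 fold change 1.24, adjusted p = 0.0176 by limma).

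For 7 members the locus carries the symbol of another gene as well. These are Mrpl33, Mrpl48, Mrpl53, Mrps6, Mrps23, Mrps24 and Mrps34, and their values hold fragments that cannot be assigned to one of the genes. None was called by limma, against 7.74% of annotated loci called higher. At an unadjusted p under 0.05, 5 (71.4%) were higher, against 25.6% of annotated loci. All P7 hearts lay above all P1 hearts in 3 of the 7 (Mrps23, Mrps24 and Mrps34), against 17.3% of annotated loci. Mrps24 had the highest log2 fold change of the 7, at 0.74 (adjusted p = 0.0696), and Mrpl48 the lowest, at 0.14.

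Single hearts and transcript GC content moved with the members. P7 replicate 3 held the highest of the 8 values in 68 of 76 members, and P1 replicate 3 the lowest in 36. P1 replicate 3 also had 14206 loci without a gene symbol at 1 FPKM or more, against 4914 to 7513 in the other hearts. The part of this in the members' values was not tested. The summed FPKM of the members was 3664, 3159, 3132 and 3613 in the P1 hearts and 3840, 3385, 5406 and 4135 in the P7 hearts. The stages overlapped, since P7 replicate 2 lay below 2 P1 hearts. The median member was at 35.1, 28.3, 24.8 and 35.2 FPKM in P1 and at 37.2, 30.5, 52.2 and 41.1 FPKM in P7. Annotated loci as a whole moved with these hearts, by a median of -0.31 on the log2 scale in P1 replicate 3 and 0.33 in P7 replicate 3 from the mean of the 8 hearts, and the members by -0.37 and 0.56. Without both of these hearts the members' median log2 fold change was 0.15, against 0.09 for annotated loci, and none of the 76 was called by limma, with 12 at an unadjusted p under 0.05. Calls over annotated loci fell as well, from 1390 higher and 72 lower to 91 higher and 14 lower. The part of these hearts in the results was not tested beyond this.

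**Figure D4:**
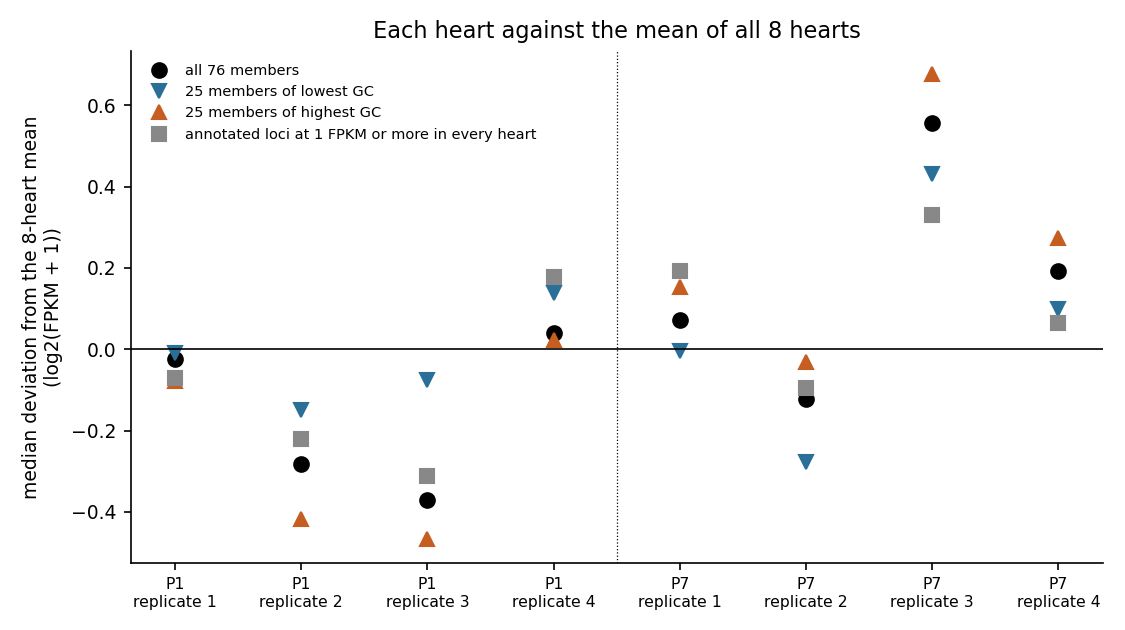
Median deviation of each heart from the mean of all 8 hearts on the log2(FPKM + 1) scale (vertical), for all 76 members, for the 25 of lowest and the 25 of highest transcript GC content and for annotated loci. P7 replicate 3 is highest in all 4 sets. The high-GC members are below the low-GC members in the 4 P1 hearts and above them in the 4 P7 hearts.

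The longest transcript of each member in GENCODE M21 had a GC content of 38.6% to 60.4%, with a median of 49.8%. The log2 fold change of a member rose with this value (Spearman's rho 0.53 and Pearson's r 0.53 across 76 genes that share the same libraries, as a description). Across the 15430 annotated loci with a known GC content rho was 0.53 as well. The 25 members of highest GC content (52.6% to 60.4%) had a median log2 fold change of 0.52, and all were above 0. The 25 of lowest GC content (38.6% to 46.9%) had 0.12, with 9 below 0. When the trend of each heart's values on GC content was subtracted, rho across the members was -0.17, the members' median log2 fold change was 0.31, and Mrps26 alone remained called (log2 fold change 1.23, adjusted p = 0.0258 by limma). Calls over annotated loci fell with this correction too, from 1390 higher and 72 lower to 381 higher and 27 lower. Neither transcript length (rho -0.20) nor level (rho -0.15) was as closely related to the fold change.

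**Figure D5:**
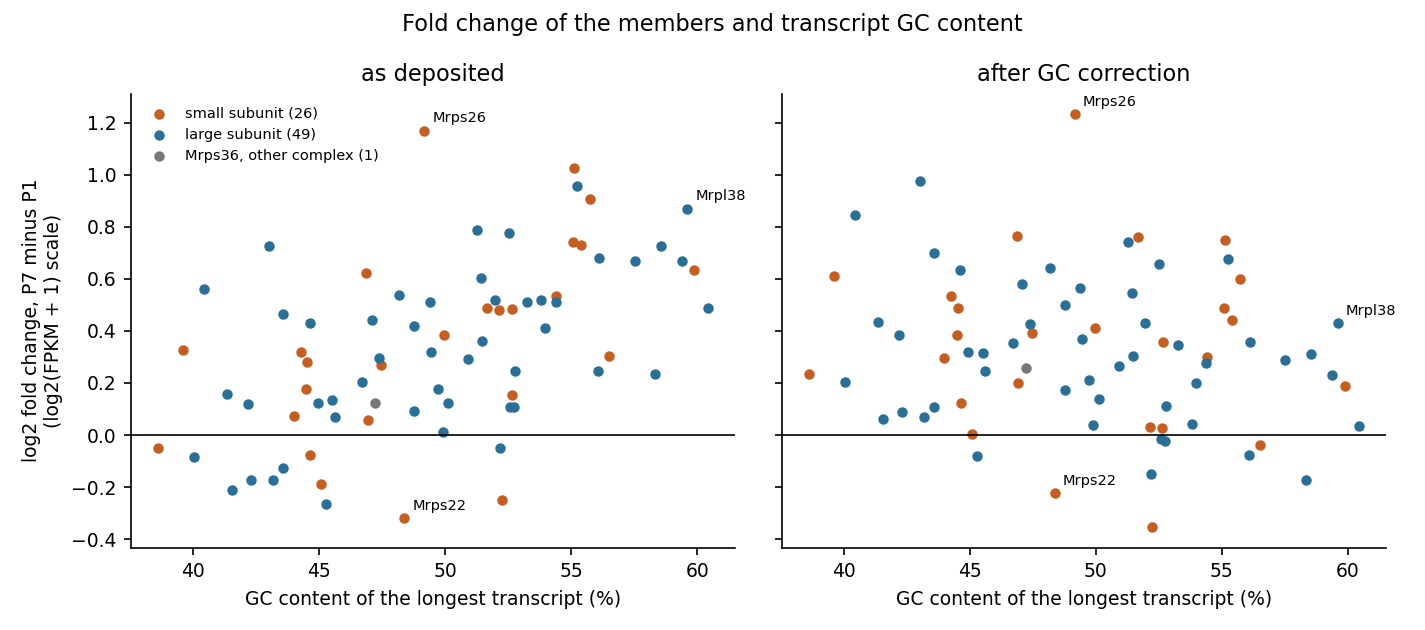
Log2 fold change of each member, P7 minus P1, against the GC content of its longest transcript in percent, before (left) and after (right) the GC trend of each heart was subtracted. The points rise from left to right before correction and do not after it, and Mrps26 stays at the top while Mrpl38 falls from 0.87 to 0.43.

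The other genes that serve the mitochondrial ribosome were examined in 4 lists of 69 tested genes in all. Of these, 3 (4.35%) were called higher in P7 by limma and none lower, against 7.74% and 0.401% of annotated loci. At an unadjusted p under 0.05, 21 (30.4%) were higher and 1 (1.45%) lower, against 25.6% and 4.1% of annotated loci. Rbfa, a factor that matures the small subunit, was at 10.6, 8.17, 5.05 and 14.2 FPKM in P1 and at 27.0, 21.8, 32.6 and 23.3 FPKM in P7. All P7 hearts were above all P1 hearts, and the log2 fold change was 1.43 (95% interval 0.86 to 2.01, adjusted p = 0.0172 by limma). Ddx28, an RNA helicase of large subunit assembly, was at 3.04, 2.08, 2.27 and 3.42 FPKM in P1 and at 5.10, 4.65, 6.43 and 5.12 FPKM in P7, again without overlap (log2 fold change 0.78, adjusted p = 0.0419 by limma). These were the 2 called genes (7.69%) among 26 tested assembly and ribosomal RNA factors, whose median was 0.33.

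Of 7 mitochondrial ribosomal proteins that carry other names, Aurkaip1 (small subunit protein mS38) rose from 84.2 ± 17.1 to 149 ± 17.1 FPKM (SD, n = 4 each; log2 fold change 0.83, adjusted p = 0.0452 by limma). Dap3, a GTP-binding protein of the small subunit, averaged 23.6 ± 6.90 FPKM in P1 and 25.5 ± 6.02 in P7. Ptcd3, an RNA-binding protein of the small subunit, averaged 37.3 ± 7.51 and 28.1 ± 7.55 (SD, n = 4 each; log2 fold change -0.41, adjusted p = 0.345). After GC correction none of the 69 genes was called by limma and 17 had an unadjusted p under 0.05, with log2 fold changes of 1.00 for Rbfa (adjusted p = 0.0878), 0.48 for Ddx28 (adjusted p = 0.215) and 0.50 for Aurkaip1 (adjusted p = 0.226). The same correction moved the calls over annotated loci from 1390 higher and 72 lower to 381 higher and 27 lower.

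None of the 14 translation factors and none of the 22 mitochondrial aminoacyl-tRNA synthetases was called by limma, against 7.74% of annotated loci called higher. At an unadjusted p under 0.05, 4 of each list were higher (28.6% and 18.2%), against 25.6% of annotated loci. Their medians were 0.16 and 0.23. Tufm, the elongation factor that delivers aminoacyl-tRNA, was at 21.2, 18.8, 11.7 and 29.6 FPKM in P1 and at 32.3, 29.8, 62.0 and 37.9 FPKM in P7. The stages were separate by a small gap, and the adjusted p was 0.0893 (log2 fold change 0.97). The elongation factor Gfm1, which moves the ribosome along the mRNA, averaged 55.9 ± 18.5 and 55.4 ± 19.7 FPKM (SD, n = 4 each). The initiation factor Mtif2 had a log2 fold change of -0.17 (95% interval -0.65 to 0.32) and the recycling factor Mrrf 0.14 (95% interval -0.32 to 0.60). The values of Lars2, the leucyl-tRNA synthetase, ran from 0 to 9835 FPKM over the 8 hearts and were not read further.

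The lowest median of these lists belonged to the genes upstream of translation. The 21 genes of mitochondrial transcription and mRNA handling had a median of -0.05, with 8 above 0 and none called by limma. At an unadjusted p under 0.05, 2 (9.52%) were higher and 1 (4.76%) lower, against 25.6% and 4.1% of annotated loci. Tfam, which packages mitochondrial DNA and starts its transcription, averaged 39.9 ± 10.4 FPKM in P1 and 51.8 ± 17.4 in P7, and Polrmt, the mitochondrial RNA polymerase, averaged 2.95 ± 1.07 and 4.34 ± 1.00 (SD, n = 4 each). Lrpprc, which stabilizes mitochondrial mRNAs, averaged 48.9 ± 12.4 and 38.0 ± 12.2 FPKM. Of 12 regulators of mitochondrial biogenesis, Esrra, the gene of an estrogen-related receptor, was higher in P7, at 50.6 ± 7.85 FPKM against 29.1 ± 4.23 (SD, n = 4 each; log2 fold change 0.78, adjusted p = 0.0448 by limma). The genes of the other named factors whose letters were searched in the promoters were not called, with log2 fold changes of 0.21 for Nrf1, -0.25 for Gabpa and 0.40 for Yy1.

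Other groups of genes served as a scale. The 75 cytosolic ribosomal protein genes had a median log2 fold change of 0.21. None was called by limma, against 7.74% of annotated loci called higher. At an unadjusted p under 0.05, 7 (9.33%) were higher, against 25.6% of annotated loci. The 78 tested nuclear subunits of the respiratory complexes had a median of 0.38, with 72 (92.3%) above 0, against 67.6% of annotated loci. Of them, 1 (1.28%) was called higher in P7, against 7.74% of annotated loci. It was Cox4i2, an isoform of a cytochrome oxidase subunit. At an unadjusted p under 0.05, 19 (24.4%) were higher and 1 (1.28%) lower, against 25.6% and 4.1% of annotated loci. The medians of these groups and of the members were not tested against each other. Of the 13 mitochondrially encoded mRNAs, 11 share 1 locus in the files and have no values of their own. That locus averaged 887 ± 329 FPKM at P1 and 1200 ± 368 at P7 (SD, n = 4 each; log2 fold change 0.48, adjusted p = 0.428 by limma). Of the other 2, mt-Nd6, a complex I subunit mRNA, averaged 10.2 ± 4.40 FPKM at P1 and 8.996 ± 1.152 at P7 (SD, n = 4 each; log2 fold change -0.05, adjusted p = 0.925 by limma), and mt-Nd3 is listed at 0 in every heart.

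Whole hearts hold several cell types, and fewer cells of a type and less RNA per cell cannot be told apart in these samples. All 8 cardiomyocyte markers were found, with a summed level of 14837 to 27188 FPKM in P1 and 19305 to 29064 in P7, and none was called by limma (2 higher and 1 lower at an unadjusted p under 0.05). All 6 fibroblast markers were found, with a summed level of 564 to 1151 FPKM in P1 and 1520 to 1844 in P7, and 4 were called higher. The 6 endothelial markers summed to 70.5 to 135 FPKM and 114 to 176 FPKM with 2 called higher. The 5 leukocyte markers found summed to 15.7 to 21.2 FPKM and 34.01 to 46.6 FPKM with Lyz2 called higher, and 1 of them, Cd3e, was under 1 FPKM in every heart. The 5 smooth muscle and pericyte markers summed to 274.5 to 571 FPKM and 219 to 334 FPKM, with 1 called higher and 1 lower. The 3 red cell markers found summed to 274.6 to 799 FPKM and 736.5 to 998 FPKM, and the 4 markers of brown fat and skeletal muscle found to 9.31 to 19.4 FPKM and 21.8 to 35.5 FPKM with Cidea called higher. The 6 proliferation markers summed to 144 to 184 FPKM and 109 to 249 FPKM with none called by limma (0 higher and 1 lower at an unadjusted p under 0.05). The part of these cell types in the members' values was not tested.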

How the data were processed

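Whole hearts of 4 P1 and 4 P7 mice were measured by RNA-seq. The authors deposited FPKM per locus, made from reads aligned by their provider to GRCm38 with Ensembl annotation. The aligner is not given in the sources used here. The files hold no counts, so the fragment depth behind each value is unknown, and a fold change on the log2(FPKM + 1) scale understates changes at low levels.

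From these values, 43172 loci with at least 1 FPKM in any heart were fitted with limma 3.58.1 (R 4.3.3, lmFit and eBayes with trend, a pseudocount of 1, no covariates), and p-values were adjusted by Benjamini-Hochberg over all of them. Single genes were also compared by an exact permutation test over 70 assignments of hearts to stages. Python 3.11.15 with numpy 2.4.6, pandas 2.3.3, scipy 1.17.1 and matplotlib 3.10.9 gave the tables and figures. The fit was tested on simulated data with independent noise for each locus and heart. The simulated hearts had no shared shift and no GC trend, so this test cannot show how the fit behaves with either.

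Symbols were split at commas, matched without regard to case and represented by the locus of highest mean. The members, lists, named genes and alternatives were chosen with earlier results of these data known. Named members were those past the threshold, the 6 highest and 6 lowest fold changes, the 5 most abundant, 11 chosen by role and those on loci with several symbols. Mrpl46 and the partner gene Apba3 were named after their values were seen. The labels number the hearts 1 to 4 in each stage, but same-numbered hearts are different animals and their deviations correlated by -0.10 to 0.12 over the 4 pairs, so the hearts were not treated as pairs. Alternatives were another pseudocount and filters, median-ratio scaling, quantile normalization, GC correction (lowess, span 0.3, on the GC content of the longest GENCODE M21 transcript), the replicate block, eBayes without trend, sample quality weights, loci of 1 symbol, the adjusted p without the fold threshold and the omission of each heart in turn. Median-ratio scaling together with GC correction, and the fit without both replicates 3, were added after the data were seen. Promoters came from RefSeq (GRCm38.p6). Protein sequences were not used here.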

Additional observations from a re-analysis of the deposited data

Results flagged for a closer look

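In 68 groups of 4 hearts (the named members and 3 medians per heart, in each stage) the gap of the highest or lowest heart was compared with Dixon's 95% critical value for 4 samples, which chance exceeds in about 1 of 20 groups. One group passed, fewer than chance gives. Mrpl42 in P1 replicate 4 was at 166 FPKM, whereas the other P1 hearts lay between 225 and 237 FPKM.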

How the results depend on the processing

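Members called numbered 3 with a pseudocount of 0.1 and 2 with the adjusted p alone or with loci of 1 symbol. They numbered 1 with no filter, with GC correction, with eBayes without trend and with median-ratio scaling plus GC correction, 4 with median-ratio scaling, 5 with quantile normalization (4 higher and Mrps22 lower in P7), 10 with sample quality weights, 11 where only loci at 1 FPKM or more in every heart were tested, and 0 without P1 replicate 3 and P7 replicate 3. Apart from Mrps22 under quantile normalization, all were higher in P7, and Mrps26 was among them in each case but the last. Annotated loci called higher numbered 1390 in the reported fit, 1341 at pseudocount 0.1, 591 with no filter and 905 with eBayes without trend. They numbered 381 with GC correction, 584 with median-ratio scaling plus GC correction, 1390 with median-ratio scaling and 1377 with quantile normalization. With quality weights they numbered 2773, with the filter on every heart 2424 of 12730, and without both replicates 3 they numbered 91. The 3 called genes of the other mitochondrial translation lists became 1 with no filter, with eBayes without trend and with median-ratio scaling plus GC correction, 0 with GC correction and 0 without both replicates 3, 5 with median-ratio scaling, 6 with quantile normalization, 10 with quality weights and 11 with the filter on every heart. Fewer loci tested is part of the last of these by construction. The cause of the others was not tested.

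With the replicate block, 1 member (Mrps26) and 1 gene of the other lists were called, and with the replicate block and GC correction 1 member and 0 others. In these fits, 970 annotated loci were called higher with the block and 347 with the block and GC correction. Mrpl38 was not called with the block (adjusted p = 0.0705 by limma). Same-numbered hearts are not paired by the labels.

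With 1 heart left out, members called ranged from 0 to 8 (0 without P1 replicate 2 and without P7 replicate 3, 1 without replicate 3 of P1 or replicate 1 or 4 of P7, 8 without P1 replicate 4) and genes of the other lists from 0 to 11 (0 without replicate 2 of P1 or replicate 1 or 3 of P7, 1 without replicate 1 or 3 of P1 or replicate 2 or 4 of P7, 11 without P1 replicate 4). Over the same fits, annotated loci called higher ranged from 156 without P1 replicate 2 to 2720 without P1 replicate 4. The members' median log2 fold change stayed above 0 in every setting, from 0.05 with median-ratio scaling plus GC correction to 0.43 without P7 replicate 2. Its excess over the annotated median ran from -0.01 with quantile normalization to 0.18 without P7 replicate 2.

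Over all 76 members, the log2 fold change changed sign in 13 with GC correction (with or without the replicate block), in 20 with median-ratio scaling, in 19 with quantile normalization, in 20 with median-ratio scaling plus GC correction, in 10 without both replicates 3 and in 3 with quality weights, and none of these was called in the reported fit or under the setting that turned it. Among the 31 members named by rule, GC correction turned Mrpl50 (0.088), Mrps25 (0.0036), Mrpl1 (0.061), Mrpl42 (0.071), Mrpl12 (-0.077) and Mrps12 (-0.038). Median-ratio scaling turned Mrpl33 (-0.058), Mrps18b (-0.093), Mrps36 (-0.14), Mrpl12 (-0.014), Mrpl3 (-0.19) and Mrpl48 (-0.12), and quantile normalization turned Mrpl33 (-0.020), Mrps18b (-0.099), Mrps36 (-0.096), Mrpl12 (-0.024), Mrpl3 (-0.19) and Mrpl48 (-0.091). Median-ratio scaling plus GC correction turned Mrpl54 (-0.24), Mrps23 (-0.24), Mrps18b (-0.23), Mrps36 (-0.0058), Mrpl12 (-0.34), Mrps12 (-0.30), Mrpl3 (-0.0086), Mrps34 (-0.077) and Mrpl53 (-0.23). Without both replicates 3, Mrps18b (-0.067), Mrpl12 (-0.12) and Mrpl3 (-0.20) turned negative. Mrpl46, named after its values were seen, turned negative under each of these 5 settings (-0.02 to -0.27). Over the fits that left out 1 heart, the ranges of 15 members crossed 0, among them those of Mrps27 -0.51 to 0.039, Mrpl47 -0.45 to 0.018, Mrps36 -0.0073 to 0.27, Mrpl3 -0.095 to 0.20 and Mrpl46 -0.05 to 0.25. The unknown fragment depth limits what can be said of small differences, and with 4 hearts per stage the median 95% interval of a member spanned 0.96 on the log2 scale.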
